A study of Gallus gallus with 18 samples.

Results

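High and low eggshell strength were compared at the termination period of calcification in the uterus of laying hens. The comparison set the 3 libraries of the high strength termination group (HST-1, HST-2 and HST-3) against the 3 of the low strength termination group (LST-1, LST-2 and LST-3), chosen by their labels, which is 6 of the 18 libraries of the series. Differences are given as high minus low strength. Both groups were Hy-Line Brown hens, a commercial brown egg layer, aged 42 weeks, and the tissue was the uterus in all of them. The series has the same 2 strength groups at initiation and in growth of the shell, each with 3 libraries, and the hens are described as laying eggs with a hard or a weak shell. The sources used here do not give how shell strength was measured, which values set a hen in a group or how long after ovulation each period lay. No label ties a library to a hen of its own, and p-values here therefore cover the variation among these libraries, part of which may be technical.

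The hen's uterus, or shell gland, holds the egg while its shell is laid down. Its epithelium passes calcium and bicarbonate ions into the fluid around the egg, together with proteins that become the organic matrix of the shell. After initiation, in which the first mineral is deposited, comes a long growth period with fast mineral deposition, and at termination mineral deposition ends and the cuticle is formed before the egg is laid.

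The count table lists 20866 loci, of which 17108 carry Ensembl identifiers and 3758 a number given by the authors (numbered loci). The files do not pair the identifiers with gene names, and 0 rows of the RefSeq table used here carried an Ensembl identifier. Gene names, functions, sequences and markers of uterine or other cell types are therefore not given for these loci, and the tissue label was not checked against markers. In all, 16110 loci were tested, namely those above 1 CPM in at least 3 of the 18 libraries, where CPM are counts scaled to a common library size.

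HST-3 stood apart from the other libraries of its label, and each result below is given with this library shown on its own. Levels here are log2 CPM after scaling with the trimmed mean of M values (TMM). HST-1 and HST-2 differed by a median of 0.24 on the log2 scale per gene, and 9.91% of genes differed more than 2-fold between them. HST-3 differed from HST-1 by a median of 0.91 and from HST-2 by 0.95, and 45.9% and 48.1% of genes were more than 2-fold apart. Its distance from LST-3 was 0.22, with 7.15% of genes more than 2-fold apart, and its distances from LST-2 and LST-1 were 0.32 and 0.43. The closest pair among the low strength libraries, LST-2 and LST-3, differed by 0.26, so HST-3 lay as near to LST-3 as the low strength libraries lay to each other. LST-1 was the low strength library nearest to HST-1 and HST-2, at medians of 0.67 and 0.69, against 0.91 to 1.06 for LST-2 and LST-3. Within groups, genes had a median SD of 0.61 in log2 CPM among the 3 high strength libraries and 0.33 among the 3 low strength ones, and 0.21 to 0.27 in the groups of the earlier periods.

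The 6 libraries held 14682676 to 15938817 counts. The 10 most abundant loci of each library took 14.2% and 15.9% of the counts in HST-1 and HST-2 and 24.8% in HST-3, against 25.3%, 32.2% and 30.4% in LST-1, LST-2 and LST-3. The high strength libraries were all below the low strength ones, with HST-3 next to LST-1. The means were 18.3% ± 5.68 and 29.3% ± 3.60 (SD, n = 3 each), and the difference gave an exact two-sided permutation p of 0.1, the smallest that 3 against 3 libraries allow (0.267 after Benjamini-Hochberg adjustment over 4 library measures). The authors' read statistics give a GC content of 49.33%, 50.01% and 51.76% for mate 1 of HST-1, HST-2 and HST-3, against 50.63%, 53.07% and 51.99% for LST-1, LST-2 and LST-3 (exact permutation p = 0.2). The share of bases at quality 30 was 92.16%, 93.21% and 92.42% in the high strength libraries and 92.41%, 90.9% and 91.31% in the low strength ones (exact permutation p = 0.2). Numbered loci took 8.18%, 7.85% and 9.95% of the counts in the high strength libraries and 9.56%, 8.95% and 9.23% in the low strength ones (exact permutation p = 0.4). On GC content, the share of numbered loci and the share of the 10 most abundant loci, HST-3 was thus nearer to the low strength libraries than HST-1 and HST-2 were. The part of these library measures in the differences between genes was not tested.

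**Figure D1:**
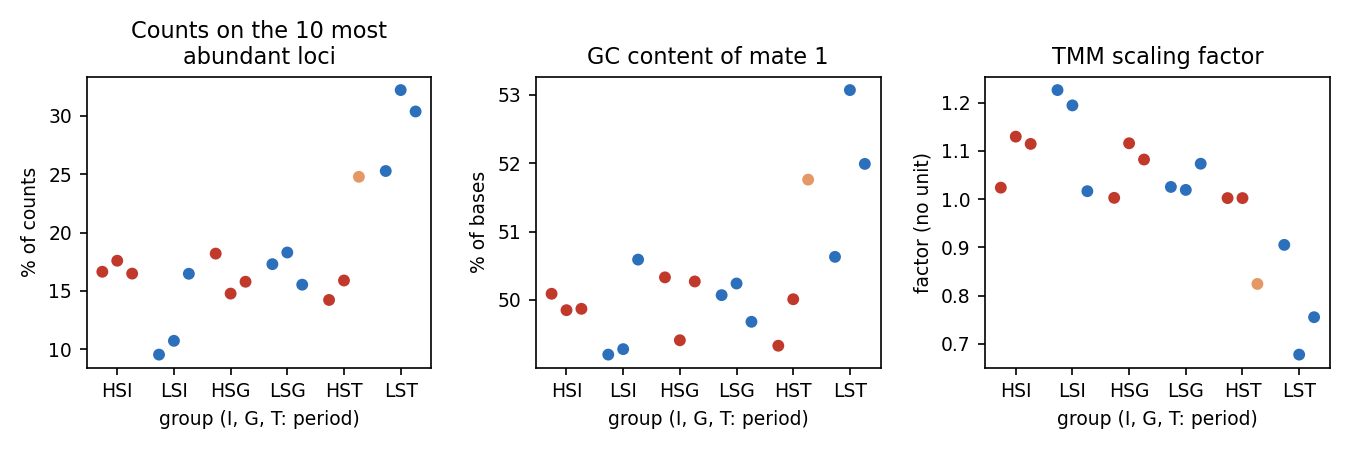
Share of counts on the 10 most abundant loci (% of counts), GC content of mate 1 (% of bases) and TMM scaling factor (no unit) in each of the 18 libraries; red points are high strength, blue points low strength and the orange point HST-3, and groups run from initiation (HSI, LSI) through growth (HSG, LSG) to termination (HST, LST). HST-3, at 24.8% and 51.76%, lies beside the 3 LST libraries, and the TMM factors are 1.002, 1.002 and 0.824 in HST and 0.905, 0.677 and 0.755 in LST.

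Against the low strength group at termination, the high strength group had many more genes called higher than lower when all libraries were fitted. Without HST-3 the directions were balanced, with 4664 genes higher and 4570 lower (edgeR quasi-likelihood test). In the test over all 18 libraries, which shares 1 estimate of the spread per gene among the 6 groups, 2280 of 16110 genes were called, or 14.2% (quasi-likelihood test of edgeR, p below 0.05 after Benjamini-Hochberg adjustment). Of these, 1971 were higher (12.2% of the genes tested) and 309 lower (1.92%). The genes called higher differed by a median log2 difference of 1.93, and 931 of them by more than 4-fold. Those called lower had a median of −1.29, and 64 differed by more than 4-fold. Over all genes tested the median was −0.0040. Only 2 of the 2280 calls had an adjusted p below 0.02, and the rest lay between 0.02 and the threshold of 0.05. It was below 0.04 for 1490 of the genes called higher and 191 of those called lower. The median SD of log2 CPM was 0.61 in the high strength termination group, against 0.21 to 0.33 in the other groups. The shared estimate may thus understate the spread of this comparison, and its p-values may be too small.

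The count depended on single libraries. It was 2 without HST-1, 15 without HST-2, 9234 without HST-3, 3605 without LST-1, 2 without LST-2 and 2 without LST-3, and a fit of edgeR to only the 6 termination libraries called 0 genes, where 2201 had p below 0.05 before adjustment. Before adjustment, p was below 0.05 for 5669 genes when all 18 libraries were fitted. That number was 3262 without HST-1, 3400 without HST-2, 10030 without HST-3, 6740 without LST-1, 3540 without LST-2 and 4081 without LST-3. DESeq2 called 3099 genes higher and 762 lower. With limma-voom and library quality weights, 5612 genes were called higher and 5647 lower, a share of 49.8% higher against 86.4% in the edgeR test. That fit gave HST-3 a weight of 0.0482, the lowest of the 18 libraries, and HST-1 and HST-2 weights of 1.31 and 0.643. LST-3 had the highest weight of the 18, 9.51, against 0.295 in LST-1 and 0.703 in LST-2. The low strength side of that fit thus rested mostly on LST-3. 

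**Figure D2:**
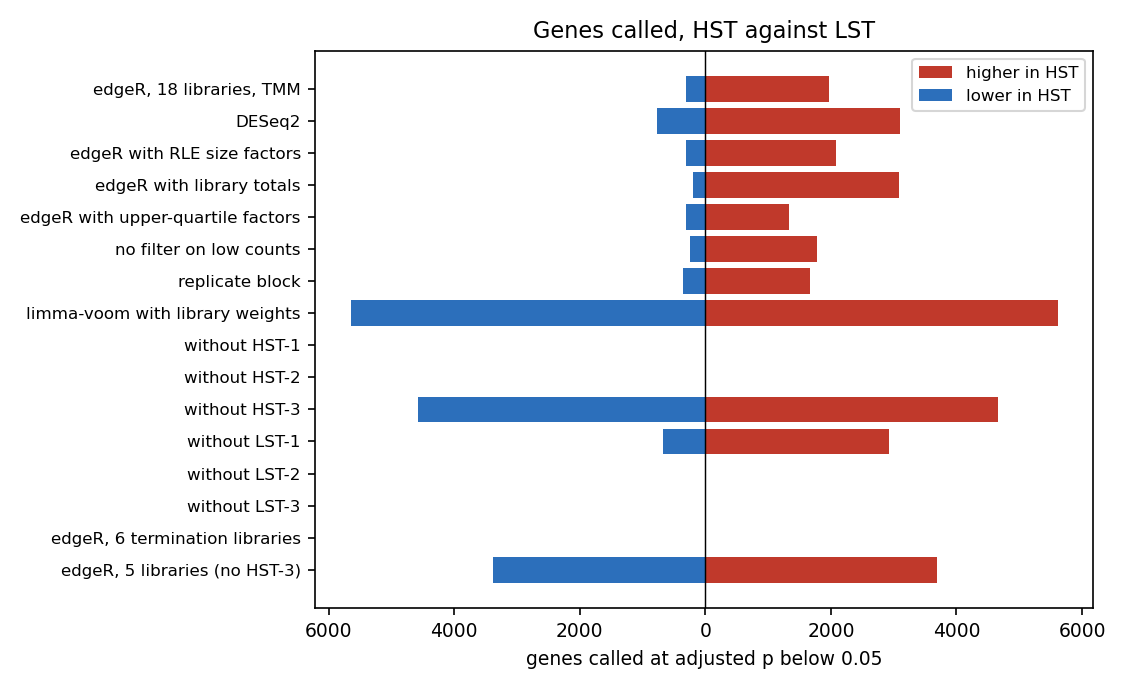
Number of genes called at an adjusted p below 0.05 under each setting (horizontal axis, genes; bars to the right are higher in HST and bars to the left lower in HST). The bars are longest without HST-3 and with library weights, and vanish at this scale without HST-1, HST-2, LST-2 or LST-3 and in the 6 termination libraries alone.

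The genes called higher were, in the median, high in HST-1 and HST-2 and level with the low strength group in HST-3. Relative to the mean of the 3 low strength libraries, the median log2 level of the 1971 genes was 2.40 in HST-1, 2.40 in HST-2 and 0.033 in HST-3, against 0.41, −0.28 and −0.10 in LST-1, LST-2 and LST-3. In HST-3, 1281 of these genes (65.0%) lay inside the range of the 3 low strength libraries, 407 above it and 283 below it. Over all genes tested, 58.5% lay inside that range. The test that selected these genes used all 6 termination libraries, so the levels in each of them, HST-3 included, describe the selection, and no test was made on them. Every high strength library was above every low strength library for 403 of the 1971 genes, whereas 927 of all genes tested had this pattern (5.75%).

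For the genes called lower, HST-3 lay between the other high strength libraries and the low strength ones in the median. These genes too were selected by a test that used HST-3, which in part fixes its position, and the calls made without HST-3 are given further on. Their median log2 level relative to the low strength mean was −1.60 in HST-1, −1.49 in HST-2 and −0.74 in HST-3, against −0.12, 0.18 and −0.041 in LST-1, LST-2 and LST-3. HST-3 was below all 3 low strength libraries for 276 of the 309 genes and above all 3 for 0 of them. Every high strength library was below every low strength library for 274 of the 309, against 1065 of all genes tested (6.61%). For 159 of the 309 genes, or 51.5%, HST-3 lay nearer to the mean of HST-1 and HST-2 than to the low strength mean. The same held for 80 of the 1971 genes called higher, or 4.06%, and for 16.8% of all genes tested. Among genes called without HST-3, the share was 5.71% of those lower and 3.84% of those higher. The contrast of 51.5% with 4.06% thus went with the use of HST-3 in the selection.

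**Figure D3:**
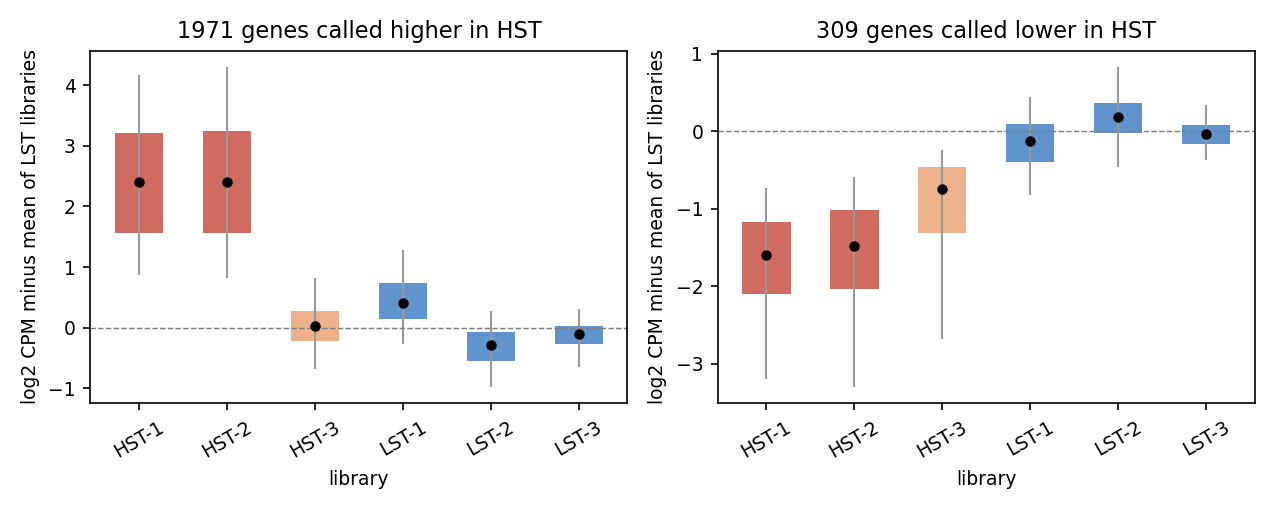
Log2 CPM minus the mean of the 3 LST libraries (vertical axis) in each termination library, for the genes called higher and the genes called lower; points are medians over genes, boxes the 25th to 75th percentile and lines the 5th to 95th percentile. Among the genes called higher, HST-3 has a median of 0.033, beside the LST libraries. Among those called lower it has a median of −0.74, between the other HST libraries and LST.

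Genes were grouped by the difference between growth and initiation, whose estimate came from the 12 libraries of the earlier periods. These share no library with this comparison. The spread per gene and the scaling came from the fit to all 18 libraries, HST-3 included, so the grouping was not wholly separate. From initiation to growth, 4358 genes were called higher (27.1% of those tested) and 4613 lower (28.6%), with the strength groups averaged. Of the genes higher in growth, 36.9% were called higher in the high strength group at termination and 0.964% lower. Of the genes lower in growth, 0.585% were called higher and 3.95% lower. Among the 7139 genes not called between initiation and growth, 338 were higher (4.73%) and 85 lower (1.19%). The median log2 difference between high and low strength at termination was 0.94 for genes higher in growth, −0.52 for genes lower in growth and −0.0067 for the rest. Genes higher in growth thus made up 81.5% of the genes called higher, and genes lower in growth 58.9% of those called lower. Without HST-3, 70.2% of the genes higher in growth were called higher in the high strength group and 61.9% of those lower in growth were called lower.

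The levels of HST-3 were also read by these groups, as a description of genes selected with HST-3 in the test. HST-3 also entered the spread used between initiation and growth, so a gene where it departed could more easily be left uncalled there. For the 1606 genes that were higher in growth and called higher at termination, the median log2 level relative to the low strength mean was 2.55 in HST-1, 2.56 in HST-2 and −0.031 in HST-3. For the 338 called higher that had not passed the test between initiation and growth, it was 1.74, 1.52 and 0.25. For the 27 called higher that were lower in growth, it was 1.43, 0.84 and 0.53. Among the genes called lower, the median in HST-3 was −0.83 for the 42 that were higher in growth. It was −0.72 for the 182 that were lower in growth and −0.73 for the 85 not called. In the same order, the medians were −1.57, −1.57 and −1.64 in HST-1 and −1.04, −1.68 and −1.39 in HST-2. HST-3 lay nearer to the mean of HST-1 and HST-2 than to the low strength mean for 32 of the 42. The same held for 79 of the 182 and 48 of the 85, and for 16.8% of all genes tested. For 36 of the genes called higher (1.83%), HST-3 lay more than 0.75 of the way from the low strength mean to the mean of HST-1 and HST-2. The same held for 89 of those called lower (28.8%) and for 12.3% of all genes tested. Of the 36 genes, 20 had not passed the test between initiation and growth and 9 were lower in growth. The other 7, or 19.4%, were higher in growth, against 81.5% of all genes called higher. Of the 89 such genes among those called lower, 47 were lower in growth, or 52.8%, against 58.9% of all genes called lower. Numbered loci were 46 of these 89, against 102 of all 309 called lower.

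The levels of HST-1 and HST-2 lay close to those of the growth libraries. Over all genes tested, the median absolute log2 distance from the mean of the 6 growth libraries was 0.32 in HST-1, 0.29 in HST-2 and 0.95 in HST-3, against 0.67, 1.03 and 0.91 in LST-1, LST-2 and LST-3. The distance from the mean of the 6 initiation libraries was 0.73, 0.74 and 0.55 in the high strength libraries and 0.35, 0.68 and 0.54 in the low strength ones. HST-1 and HST-2 fell inside the range of the growth libraries for 52.3% and 56.1% of genes, and HST-3 for 22.8%, against 29.6%, 21.1% and 23.6% in LST-1, LST-2 and LST-3. LST-1 was the termination library nearest to initiation, inside the range of the initiation libraries for 60.6% of genes. These are distances between libraries and carry no test.

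Numbered loci were unevenly placed among the calls. They were 3383 of the 16110 loci tested, or 21.0%. Of the 1971 genes called higher, 108 were numbered loci (5.48%), and of the 309 called lower, 102 were (33.0%). Seen the other way, 3.19% of numbered loci and 14.6% of Ensembl genes were called higher, and 3.02% and 1.63% were called lower. The median log2 difference was −0.32 for numbered loci and 0.078 for Ensembl genes. Without HST-3 the counts were 400 higher and 1214 lower for numbered loci, and 4264 higher and 3356 lower for Ensembl genes. By abundance, the share of genes called higher was 6.26% in the quartile of lowest mean CPM, 14.7% and 15.4% in the middle quartiles and 12.5% in the highest, and the share called lower was 2.76%, 2.04%, 1.44% and 1.44% in the same order.

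The most abundant transcripts were mostly lower in the high strength group by estimate, but did not pass the test. Of the 20 loci with the highest mean CPM over the 6 libraries, 17 had a negative log2 difference and 3 a positive one, with a median of −1.01, and 0 were called by edgeR's test over all libraries, the smallest adjusted p being 0.0523. Over all genes tested, 14.2% were called. The ranking used the libraries compared, so a locus could enter the list through the group where it was high. The signs are therefore a description. Without HST-3, 14 of the 20 were called lower and 3 higher, against 28.4% of all genes called lower and 29.0% called higher. The most abundant locus of all had 38490, 48176 and 72946 CPM in HST-1, HST-2 and HST-3, against 96064, 140947 and 124224 CPM in LST-1, LST-2 and LST-3. The groups did not overlap at this locus, and HST-3 was the nearest to the low strength libraries. Without TMM scaling, the locus took 3.86%, 4.83% and 6.01% of the counts in HST-1, HST-2 and HST-3. In LST-1, LST-2 and LST-3 it took 8.69%, 9.54% and 9.38%. Of the 20 loci, 2 had every high strength library below every low strength one and 1 had every one above. The shares over all genes tested were 6.61% and 5.75%. For the most abundant locus, the fits were as follows. Its log2 difference was −1.18 ± 0.54 (standard error; edgeR adjusted p = 0.133). Without HST-3 it was −1.47 ± 0.57 (edgeR adjusted p = 0.0364).

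A pair of loci was called in every fit that used the 3 periods, with HST-3 on the side of its label. ENSGALG00000028929 and Novel01467 were the 2 loci called in all 14 fits, among 11506 called in at least 1 of them. They were singled out after these values were seen. The fits include those without HST-1 and without HST-2, so the choice in part fixed the place of HST-3. The p-values of both loci describe loci chosen for passing these tests. Lack of overlap was not particular to them. Over all genes tested, every HST library was above every LST library for 927 (5.75%) and below for 1065 (6.61%). ENSGALG00000028929 had 34.1, 34.9 and 42.1 CPM in HST-1, HST-2 and HST-3, against 1.13, 3.20 and 2.14 CPM in LST-1, LST-2 and LST-3. HST-3 was the highest of the 6 libraries, and no low strength library came near the high strength range. The means were 37.1 ± 4.39 and 2.15 ± 1.03 CPM (SD, n = 3 each), a log2 difference of 4.12 ± 0.44 (standard error), or 17.4-fold (edgeR adjusted p = 0.000759), and it was higher in 3 of 3 libraries. In the earlier periods ENSGALG00000028929 was counted at 17.4 to 52.5 CPM in the 6 initiation libraries and 14.2 to 39.0 CPM in the 6 growth libraries. The low strength termination group was therefore the group that stood below the others. The difference between the strength groups at termination minus its mean over initiation and growth was 4.38 on the log2 scale, given with no test since the gene was singled out for its difference at termination.

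Novel01467 went the other way. It had 8.77, 12.4 and 8.88 CPM in HST-1, HST-2 and HST-3, against 37.5, 35.6 and 31.2 CPM in LST-1, LST-2 and LST-3, and the groups did not overlap. The means were 10.02 ± 2.06 and 34.8 ± 3.20 CPM (SD, n = 3 each), a log2 difference of −1.79 ± 0.18 (standard error; edgeR adjusted p = 0.000539). Levels of Novel01467 lay between 18.9 and 21.8 CPM in all 6 initiation libraries and between 27.9 and 37.6 CPM in all 6 growth libraries, so here the high strength termination group was the one outside the range of the other groups. Its strength difference at termination minus the mean over the earlier periods was −1.75, again with no test. Over the 13 alternatives that used the 3 periods, the log2 difference of ENSGALG00000028929 ran from 3.80 to 4.51 and its adjusted p reached 0.0176 at most, and that of Novel01467 ran from −1.98 to −1.52 with an adjusted p of at most 0.0219. In the edgeR fit to the 6 termination libraries alone neither passed the test (adjusted p = 0.360 for each).

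**Figure D4:**
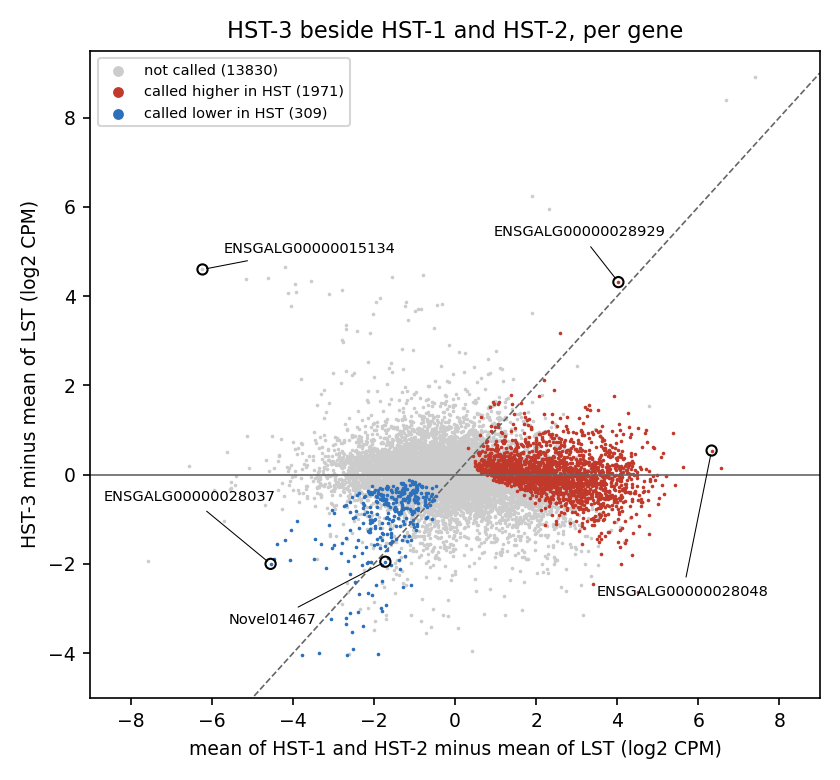
Each point is a gene tested, with the mean of HST-1 and HST-2 minus the mean of LST on the horizontal axis and HST-3 minus the mean of LST on the vertical axis (both log2 CPM); red and blue points were called higher and lower in HST, and the dashed line marks equal differences. Most genes called higher lie along the horizontal line at 0, while ENSGALG00000028929 and Novel01467 lie by the dashed line.

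Genes were named by a rule on size, among Ensembl genes called with no overlap between groups and a mean of 10 CPM or more in the group with the higher level. Their differences and p-values therefore describe genes chosen for them and are not separate results. A gene that rose could reach the 10 CPM through HST-1 and HST-2 alone. Lack of overlap alone was common, since over all 16110 genes tested every HST library was above every LST library for 927 (5.75%). Every HST library was below every LST library for 1065 (6.61%). The largest rises, of 262 genes that met the conditions of the rule, were in ENSGALG00000028048 and ENSGALG00000003479. In both, HST-3 was only just above the low strength libraries. ENSGALG00000003479 had 60.4, 52.6 and 2.78 CPM in HST-1, HST-2 and HST-3, against 2.33, 1.40 and 1.69 CPM in LST-1, LST-2 and LST-3. HST-1 and HST-2 were above the 38.9 to 48.9 CPM of the growth libraries, and HST-3 was within the 2.35 to 13.2 CPM of the initiation libraries. Its log2 difference was 4.40 ± 0.83 (standard error; edgeR adjusted p = 0.0271), and without HST-3 it was 4.94 ± 0.48. ENSGALG00000028048 had a larger difference, 5.88 ± 1.02 (standard error; edgeR adjusted p = 0.0271), on levels of 106, 102 and 1.74 CPM in the high strength libraries against 0.828, 1.60 and 1.16 CPM in the low strength ones. HST-1 and HST-2 were here below the 132 to 377 CPM of the growth libraries.

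Among 115 genes of the same kind that were lower, the largest falls were in ENSGALG00000028037 and ENSGALG00000028279. ENSGALG00000028037 had 5.71, 7.89 and 40.1 CPM in HST-1, HST-2 and HST-3, against 208, 146 and 136 CPM in LST-1, LST-2 and LST-3. Here HST-3 was well above HST-1 and HST-2 and still below all low strength libraries. The 6 growth libraries had 9.27 to 16.4 CPM and the 6 initiation libraries 68.2 to 419 CPM. Its log2 difference was −3.20 ± 0.59 (standard error; edgeR adjusted p = 0.0271). ENSGALG00000028279 likewise had HST-3 between the other high strength libraries and the low strength ones, at a lower level, with 1.56, 1.002 and 6.03 CPM in the high strength libraries and 28.4, 19.9 and 22.2 CPM in the low strength ones, a log2 difference of −3.05 ± 0.67 (standard error; edgeR adjusted p = 0.0271). Leaving out HST-1, HST-2, LST-2 or LST-3 ended the calls of all 4 genes, with adjusted p up to 0.127, and leaving out HST-3 brought them to 0.000168 or below.

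**Figure D5:**
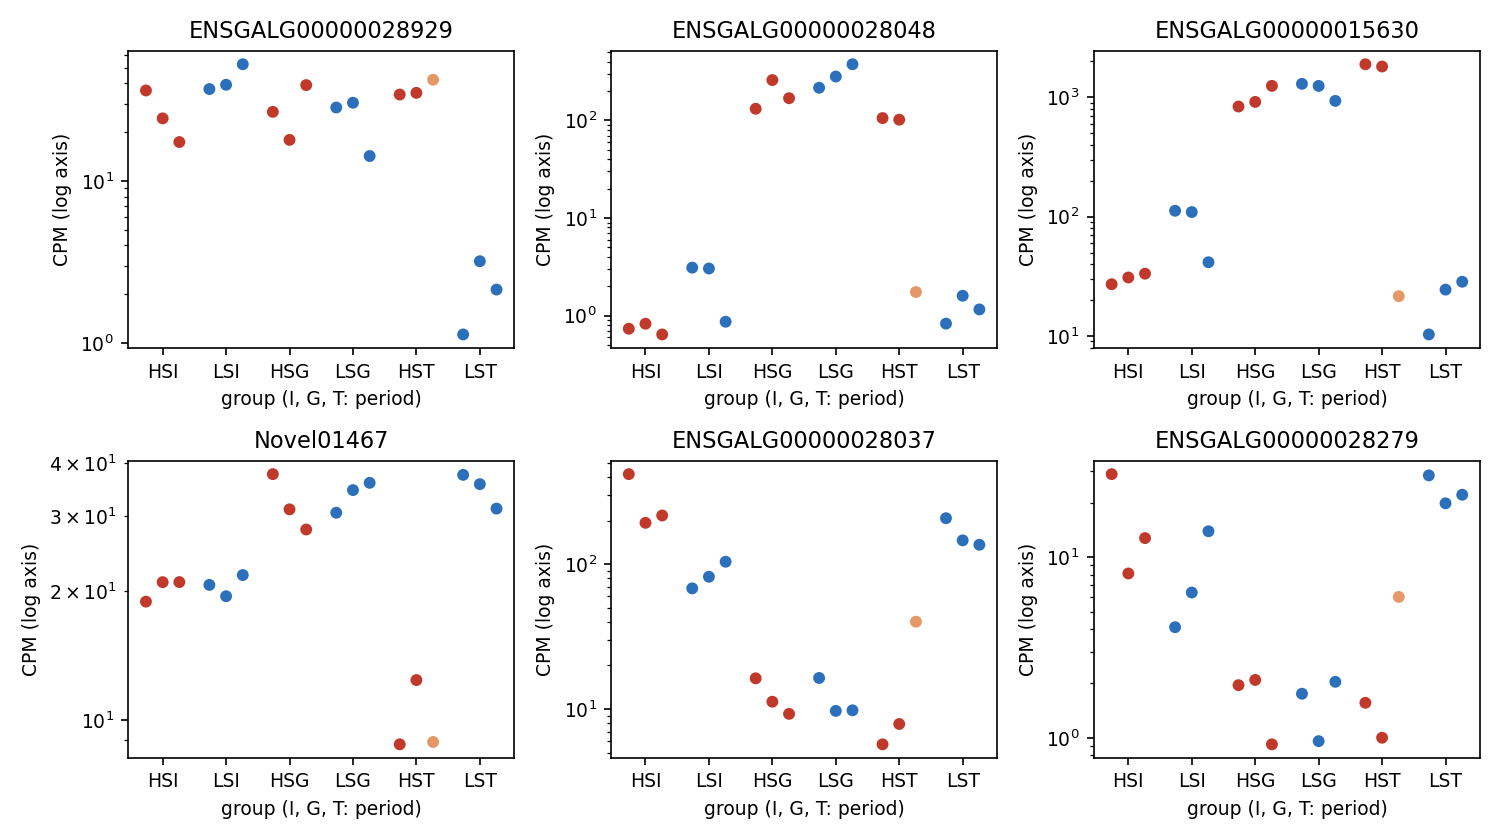
Level of 6 loci in each of the 18 libraries (CPM, log axis), with groups from initiation (HSI, LSI) through growth (HSG, LSG) to termination (HST, LST); red points are high strength, blue points low strength and the orange point HST-3. In the left panels (ENSGALG00000028929 and Novel01467) HST-3 lies with HST-1 and HST-2, and in the other panels it lies near LST or between the groups.

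Without HST-3, the differences were many and balanced in direction. The fit with HST-1 and HST-2 against the 3 low strength libraries called 4664 genes higher (29.0% of those tested) and 4570 lower (28.4%), or 57.3% in all (edgeR quasi-likelihood test). It left out the library that stood apart from its label, so its spread does not cover the variation among all high strength libraries. The p-values of this fit may therefore be too small. Of the 1971 and 309 genes called with all 3 high strength libraries, 1969 and 309 were called in the same direction without HST-3. Both fits share every library but HST-3, so this overlap was largely fixed in advance and is no separate check. The median log2 difference was 1.52 for the genes higher and −1.32 for those lower. HST-3, which had no part in these calls, had a median log2 level of −0.061 relative to the low strength mean over the 4664 genes and 0.070 over the 4570. HST-3 lay inside the range of the low strength libraries for 64.3% and 63.3% of them, against 58.5% of all genes tested. It lay nearer to HST-1 and HST-2 for 3.84% and 5.71%, against 16.8% of all genes tested. These genes were selected for a distance between HST-1 and HST-2 and the low strength libraries, which in part fixes the last shares. They are a description with no test.

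The same rule on size was applied to the fit without HST-3, so the values of these genes too describe the selection. The largest rise without HST-3, beside ENSGALG00000028048, was in ENSGALG00000015630. It had 1886 and 1806 CPM in HST-1 and HST-2 and 21.6 CPM in HST-3, against 10.3, 24.5 and 28.5 CPM in LST-1, LST-2 and LST-3. HST-3 was inside the low strength range, and HST-1 and HST-2 were above the 835 to 1293 CPM of the growth libraries. Its log2 difference without HST-3 was 6.46 ± 0.46 (standard error; edgeR adjusted p = 9.73e-07). The largest falls were in ENSGALG00000023818 and ENSGALG00000015134. ENSGALG00000023818 had 0.408 and 0.188 CPM in HST-1 and HST-2 and 20.8 CPM in HST-3, against 36.5, 189 and 74.2 CPM in LST-1, LST-2 and LST-3. It had 0.0725 to 1.09 CPM in the growth libraries and 5.48 to 231 CPM in the initiation libraries. Its log2 difference without HST-3 was −8.36 ± 1.65 (standard error; edgeR adjusted p = 0.000693), and with HST-3 it was −3.82 and not called (edgeR adjusted p = 0.0739). HST-1 and HST-2 held 6 and 3 counts of this gene, close to the floor of 3 counts, so the size of the fitted difference without HST-3 is uncertain.

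ENSGALG00000015134 was the gene among these whose direction turned on HST-3. It had 0.272 and 0.0626 CPM in HST-1 and HST-2 and 516 CPM in HST-3, against 6.85, 38.4 and 35.6 CPM in LST-1, LST-2 and LST-3. HST-3 was thus far above the low strength libraries and the other high strength libraries far below them. In the earlier periods ENSGALG00000015134 had 0 to 0.392 CPM in the growth libraries and 0.381 to 84.2 CPM in the initiation libraries. Its log2 difference was −7.29 without HST-3 (edgeR adjusted p = 0.000855) and 2.67 with it (edgeR adjusted p = 0.256). HST-1 and HST-2 held 4 counts and 1 count of ENSGALG00000015134, at about the floor of 3 counts, so here too the size of the fitted difference without HST-3 is uncertain.

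The strength difference at termination was set against its mean over initiation and growth in 1 model. It departed from that mean for 1713 genes (10.6%), upwards for 1441 (8.94%) and downwards for 272 (1.69%) (edgeR quasi-likelihood test, adjusted p below 0.05). This count too depended on single libraries, with 34 genes without HST-1, 85 without HST-2, 8624 without HST-3, 2970 without LST-1, 27 without LST-2 and 25 without LST-3.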

How the data were processed

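Per the labels' protocols, uterine RNA was extracted with Trizol and sequenced from Illumina TruSeq libraries primed with random oligonucleotides. Reads were handled with TopHat, TopHat2 and Bowtie2 on galGal4, names that come from the submitters' processing notes. The sources used here give no counting tool, strand setting or annotation release, which leaves paralogs, overlapping and antisense genes uncertain. Values per locus are counts as the authors deposited them. The table is named as normalized, but it held 0 fractional values and its totals differed between libraries, so it was tested as counts; a rounded scaling would be hard to see. For each mate the authors deposited the share, in percent, of bases above quality 30 and the GC percent, of which mate 1 was used.

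The filter was 1 CPM in 3 or more libraries. With edgeR 4.0.16, under R 4.3.3, counts were scaled by TMM and tested by quasi-likelihood, fitting 6 group means, two-sided, with Benjamini-Hochberg adjustment over all loci. Standard errors are the log2 difference divided by the square root of F. Log2 CPM used a prior count of 2. Alternatives were DESeq2 1.42.0, limma-voom (limma 3.58.1) with library weights, other scalings, no filter, a replicate block, the termination libraries alone and each library left out. Pairs of libraries within the 2 groups differed by more than counting noise (chi-square per degree of freedom 22.3 to 319), so none was counted as 1 library deposited again. Library totals after TMM scaling put 3 counts, the floor used, at 0.188 to 0.300 CPM in the termination libraries, for counting error only.

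Named genes were the 2 largest rises and 2 largest falls among Ensembl identifiers past the threshold, with a mean of 10 CPM or more in whichever group was higher and no overlap, in the fit to all libraries and in that without HST-3. Gene lists and cell type markers set by symbol could not be used without symbols. The comparison, rules and gene groups were chosen with earlier results of these data known.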

Additional observations from a re-analysis of the deposited data

Results flagged for a closer look

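The strength difference at termination differed from its mean over initiation and growth, by the edgeR test of that contrast, for 1713 of the 16110 genes tested, or 10.6%. The loci named above were chosen for their difference at termination, so their values in this contrast are a description and not a separate result. The strength difference at termination minus that mean was 7.04 on the log2 scale for ENSGALG00000028048, 6.75 for ENSGALG00000015630, 4.97 for ENSGALG00000003479 and 4.38 for ENSGALG00000028929. It was −4.07 for ENSGALG00000028037, −3.59 for ENSGALG00000028279 and −1.75 for Novel01467. ENSGALG00000023818 and ENSGALG00000015134 did not pass the threshold in this contrast.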

How the results depend on the processing

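Genes called between the strength groups numbered 2280. Under other settings this became 3861 with DESeq2, 11259 with limma-voom and library weights, 0 in the 6 termination libraries alone, and 2 to 9234 when 1 library was left out. It kept within 1.5 times under RLE factors, upper-quartile factors, library totals, no filter and the replicate block. The split by direction moved with the scaling. Of the calls, 86.4% were higher with TMM, 94.0% with library totals and 81.6% with upper-quartile factors. In the 5 termination libraries alone without HST-3, chosen after seeing the data, the number of genes called was 7070. The 1713 genes with a period-dependent strength difference became 3364 with DESeq2, 957 with upper-quartile factors, 843 with the replicate block, 11125 with limma-voom, and 25 to 8624 with 1 library left out. Scaling to library totals moved the median log2 difference of all genes to 0.26, and to 0.30 for the period-dependent difference. With the replicate number as a block, 2023 genes were called between the strength groups. Whether the numbers pair the libraries could not be told. Deviations of same-numbered HST and LST libraries correlated at 0.55, −0.37 and 0.35. HST-2 and HST-3 did not correlate best with their own numbers, but with LST-1 (0.48) and LST-2 (0.49). The deviations within HST largely set HST-3 against HST-1 and HST-2, so these correlations could not exclude a pairing. The log2 difference of ENSGALG00000015134 reversed to −7.29 without HST-3 (range −7.29 to 3.26 with 1 library left out), −7.26 in the 5 libraries and −7.13 with library weights. The cause of these changes was not tested. The difference in the share of the 10 most abundant loci was −11.0 percentage points and ran from −14.2 to −8.96 with 1 library left out; the other library measures kept their sign.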

Other observations

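Loci silent in one strength group were few and weak. Counts in at least 1 high strength library and none in the 3 low strength libraries were found for 477 loci, of which 6 had 30 counts or more in all. The reverse held for 408 loci, with 0 at 30 counts or more. No locus had more than 3 counts in every library of one group and none in the other.

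Single libraries also had a few genes of their own, out of 16110 tested. HST-3 was more than 4-fold above all of the other 5 termination libraries for 36 genes (0.22%). The counts were 14 in HST-1, 9 in HST-2 and 5, 4 and 1 in LST-1, LST-2 and LST-3. HST-2 was more than 4-fold below all others for 114 genes (0.71%), against 23 in HST-1 (0.14%), 12 in HST-3 and 5, 21 and 1 in LST-1, LST-2 and LST-3.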
